A study of Homo sapiens with 36 samples.

Results

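The genes described here are the 10 genes of the MHC class II antigen presentation pathway named CIITA, CD74, HLA-DRA, HLA-DRB1, HLA-DPA1, HLA-DPB1, HLA-DQA1, HLA-DQB1, HLA-DMA and HLA-DMB. They were taken by symbol from a table of 60628 genes, in which each of the 10 symbols named 1 row, and all 10 were among the 21138 genes with enough reads to test. The rule used symbols and no measured value, but the genes were chosen with earlier results of these data known.

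The study measured poly(A) RNA by sequencing in 7 human T cell lines in which GATA3, a transcription factor of the T lineage, was knocked down. H9, MyLa (given as Myla CD4+) and Mac1 were labelled as cutaneous T lymphocytes and are called cutaneous T cell lymphoma (CTCL) lines here. SUP-T1, CCRF-CEM, MOLT4 and THP6 were labelled acute lymphoblastic leukaemia, and as T cell lines are called T-ALL. Each line had control libraries, carrying a scramble tag in their titles and a WT genotype label, and libraries labelled GATA-3 knock down, with a shGATA3 tag. There were 2 control and 3 knockdown libraries of H9, 3 and 3 of MyLa, 2 and 2 of Mac1, 3 and 3 of SUP-T1, 3 and 3 of CCRF-CEM, 2 and 2 of MOLT4, and 3 and 2 of THP6. All lines were grown in RPMI with 10% serum and no other treatment is named. Each line is a long-kept culture from 1 source, so libraries of a line are repeats within that line, and nothing in the labels says whether the repeats were separate cultures or separate hairpins. The p-values therefore rest on how far repeat libraries differ, a spread that can be technical.

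MHC class II molecules are paired alpha and beta chains (HLA-DR, HLA-DP and HLA-DQ) that show peptides to CD4+ T cells. CD74, the invariant chain, fills the groove until the peptide exchanger HLA-DM, made of HLA-DMA and HLA-DMB, swaps its remnant for a peptide. CIITA is the co-activator that switches these genes on by docking on RFX, CREB and NF-Y bound at their promoters, and in human T cells the pathway is turned on by activation.

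The promoters of these genes are known for an X box, bound by RFX and CREB, followed by a Y box, bound by NF-Y. The RefSeq promoter table (GRCh38.p14, 250 bases before to 50 after each start) held windows for 8 of the 10 genes, all but HLA-DRA and CIITA. The letters ATTGG, the NF-Y core, were searched on both strands, as was the pair ACNGATG then ATTGG 5 to 40 bases on. ATTGG was found for 7 of the 8 genes and in 34.6% of all 35116 windows in that table. The pair was found for 3 of the 8 genes, HLA-DRB1, HLA-DQB1 and HLA-DMA, with spacers of 22, 22 and 23 bases, and in 0.234% of all windows. The first 3 sequences below hold the pair, and the next 2, from an alpha and a beta chain gene, hold ATTGG alone. CD74 is shown because its core lies on the other strand (CCAAT). They are shown in each gene's own 5′ to 3′ direction with the matched letters in capitals, and they are reference sequence, not sequence of these lines. A match describes letters in a window and is not evidence of binding.
HLA-DRB1, chr6:32589880-32589964, minus strand: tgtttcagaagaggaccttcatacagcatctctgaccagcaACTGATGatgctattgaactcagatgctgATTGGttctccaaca
HLA-DQB1, chr6:32666731-32666815, minus strand: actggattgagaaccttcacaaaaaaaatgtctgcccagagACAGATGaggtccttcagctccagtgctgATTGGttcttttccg
HLA-DMA, chr6:32953162-32953246, minus strand: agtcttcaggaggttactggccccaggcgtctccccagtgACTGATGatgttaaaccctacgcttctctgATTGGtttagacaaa
HLA-DQA1, chr6:32637268-32637352, plus strand: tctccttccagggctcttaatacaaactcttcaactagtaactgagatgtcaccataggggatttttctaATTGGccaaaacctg
HLA-DPB1, chr6:33075821-33075905, plus strand: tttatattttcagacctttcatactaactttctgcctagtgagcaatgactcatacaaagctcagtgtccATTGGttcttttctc
CD74, chr5:150412949-150413033, minus strand: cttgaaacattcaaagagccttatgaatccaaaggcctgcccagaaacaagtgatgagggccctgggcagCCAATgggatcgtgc

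Library totals ran from 18624330 to 50626644 counts. Levels are given as CPM, a gene's counts scaled to a library's TMM-adjusted total, and a gene at 0 counts in a group of libraries has an upper limit of 3 counts over that group, which covers counting error only. In 6 lines all knockdown libraries had less GATA3 than all controls, from -0.72 ± 0.08 (log2 fold change ± SE) in MyLa to -1.46 ± 0.10 in MOLT4. In SUP-T1 it went the other way, at 23.6 to 24.4 CPM in the libraries labelled control and 77.2 to 86.6 CPM in those labelled knockdown, so SUP-T1 arms are named by their labels throughout. T lineage markers were incomplete in the CTCL lines: 7 of 12 were under 1 CPM in Mac1 (CD3D, CD3E, CD3G, CD5, CD7, TRBC1 and LCK), 4 in MyLa (CD3E, CD5, CD7 and LCK) and 1 in H9 (CD2). T-ALL controls were incomplete too. Of the same list 3 were under 1 CPM in MOLT4, 2 in CCRF-CEM, 2 in THP6 and 1 in SUP-T1 controls. CD4 was not on that list. In MyLa, given as Myla CD4+, it had 3 counts over the control libraries and 0 over the knockdown libraries. It was read in H9 and Mac1. Markers of other cells that carry class II were mixed, in T-ALL as in CTCL controls. A list of 7 B cell markers summed to 131.5 to 160 CPM in SUP-T1 and 110 to 114 CPM in THP6 controls. It summed to 27.8 to 29.2 CPM in CCRF-CEM and 26.2 to 26.7 CPM in MOLT4 controls. The CTCL controls had 269 to 292 CPM in H9, 128 to 137 CPM in MyLa and 141.5 to 147 CPM in Mac1. Of 7 B cell markers 4 were under 1 CPM in H9 controls, 5 in MyLa and 5 in Mac1, with MS4A1 under 1 CPM in all CTCL libraries, but CD79A had a control mean of 185.5 CPM and CD79B 15.2 CPM in H9, and BLK 79.1, 127 and 143 CPM in H9, MyLa and Mac1. Of 10 monocyte and dendritic cell markers all were under 1 CPM in H9, 8 in MyLa and 9 in Mac1, with CD14, LYZ, CD163 and CLEC10A at 13 counts or fewer each over the libraries of any CTCL group, but CSF1R had a control mean of 38.6 CPM in Mac1 and 5.87 CPM in MyLa. CD79A and FCER1A were also at 1 CPM or more in MyLa controls, and PAX5 in Mac1 controls. The monocyte and dendritic cell list summed to 33.7 to 37.2 CPM in SUP-T1 controls, against 36.4 to 40.9 CPM in Mac1 controls. In the other T-ALL controls it was 16.8 to 17.3 CPM in MOLT4, and at most 3.14 CPM in CCRF-CEM and 0.618 CPM in THP6. The part of these markers in the class II levels was not tested.

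The class II genes were on in the CTCL lines, apart from 4 genes in MyLa, and low in the T-ALL lines, where HLA-DMA reached 4.44 CPM and none of the other 9 genes went above 1.25 CPM in a library. CIITA (chr16:10866222-10943021, plus strand, GRCh38) stood at 483.5, 465 and 490 CPM in the MyLa control libraries. It was 334 and 312 CPM in the Mac1 controls and 153 and 131 CPM in the H9 controls. These 3 ranges did not overlap, and the order MyLa, Mac1, H9 held with each step tested: MyLa over Mac1 by 0.57 ± 0.14 (log2 ± SE, adjusted p = 0.000847) and Mac1 over H9 by 1.18 ± 0.15 (adjusted p = 9.5e-08). In the 21 T-ALL libraries CIITA had at most 32 counts and at most 1.25 CPM. The SUP-T1 controls lay below the CCRF-CEM controls, and the other pairs of T-ALL lines overlapped. CIITA shares 11.6% of its exon bases with DEXI on the other strand, which reached 62.7 CPM, and without strand such reads cannot be told apart. In these bulk samples fewer cells that carry a gene and less RNA per cell cannot be told apart either.

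CD74 (chr5:150401637-150412929, minus strand), the invariant chain, followed the same order. Its levels were 8128, 7837 and 7976 CPM in the MyLa controls, 4297 and 4733 CPM in the Mac1 controls, and 1422 and 1376 CPM in the H9 controls. MyLa was 1.77-fold above Mac1 and Mac1 3.23-fold above H9, with no overlap between lines. Over all 21 T-ALL libraries CD74 summed to 70 counts, with at most 11 counts and at most 0.323 CPM in a library.

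**Figure D1:**
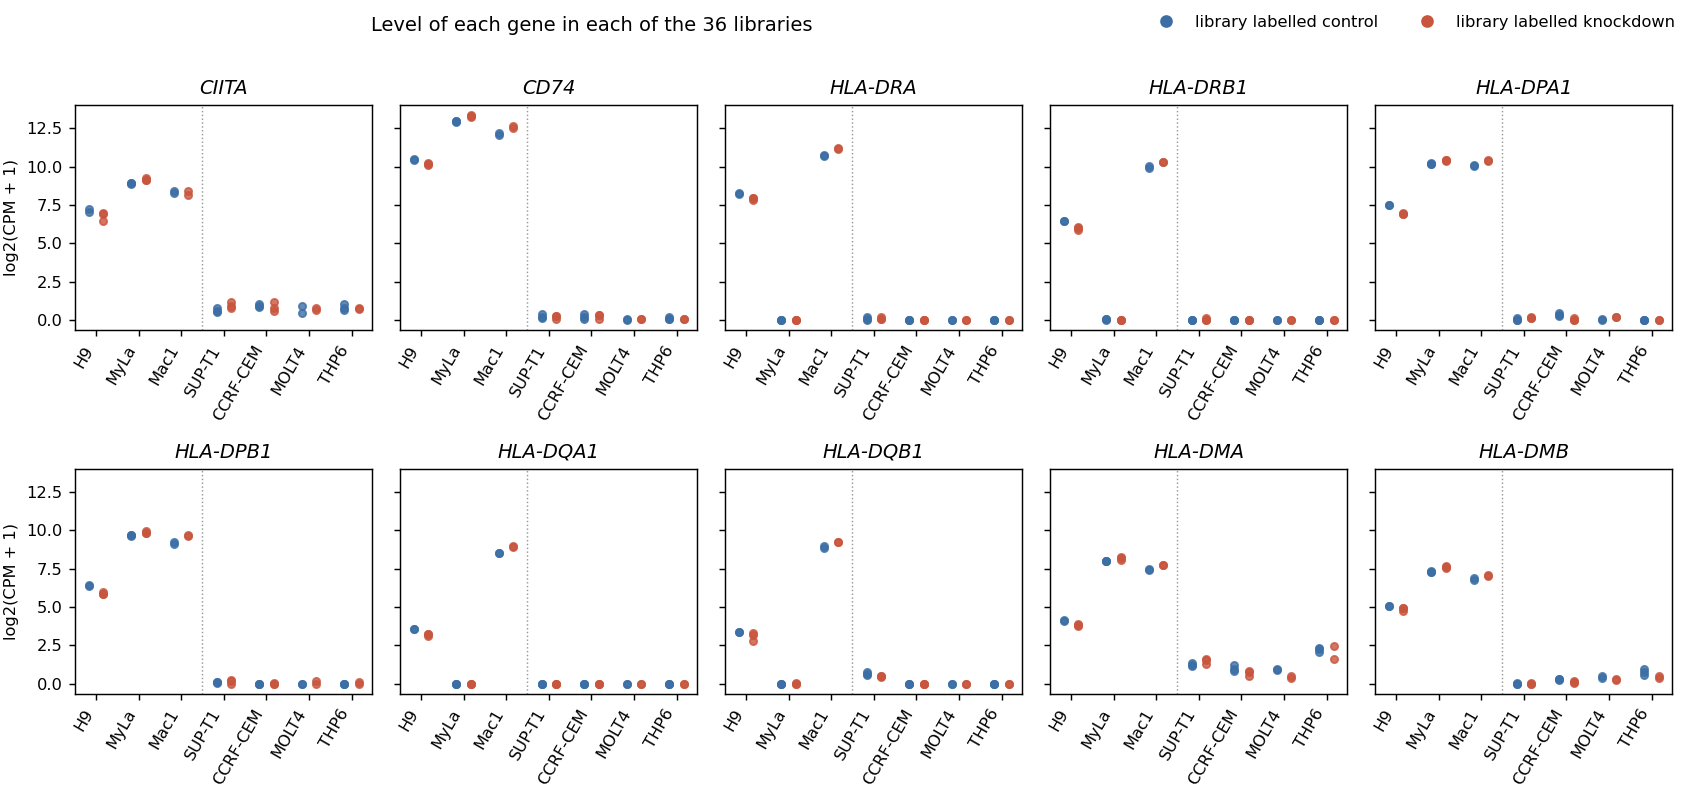
Level of each of the 10 genes, as log2(CPM + 1), in every library of the 7 lines. Points are single libraries, blue for control and red for knockdown by label, and the dotted line parts the 3 CTCL lines from the 4 T-ALL lines. MyLa sits at 0 for HLA-DRA, HLA-DRB1, HLA-DQA1 and HLA-DQB1 and at or near the top for the other 6 genes.

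The DR and DQ chains split the CTCL lines in another way. HLA-DRA (chr6:32439842-32445046, plus strand), the shared alpha chain of HLA-DR, was at 1692 and 1763 CPM in the Mac1 controls and 305 and 297 CPM in the H9 controls. It had 0 counts in all 6 MyLa libraries. That puts the Mac1 controls at least 46280-fold and the H9 controls at least 8074-fold above the limit of 3 counts over the MyLa controls. HLA-DRB1 (chr6:32578769-32589848, minus strand), its beta chain partner, was at 983 and 1047 CPM in Mac1 and 85.1 and 88.2 CPM in H9 controls. In MyLa it had 2 counts over all 6 libraries.

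HLA-DQA1 (chr6:32628179-32647062, plus strand), the DQ alpha chain, was at 360 and 373 CPM in the Mac1 controls and 10.8 CPM in both H9 controls. HLA-DQB1 (chr6:32659467-32668383, minus strand), the DQ beta chain, was at 467 and 491 CPM in Mac1 and 9.22 and 9.20 CPM in H9 controls. Mac1 was 33.9-fold above H9 for HLA-DQA1 and 52.0-fold above H9 for HLA-DQB1, against 5.73-fold for HLA-DRA and 11.7-fold for HLA-DRB1. MyLa had 0 counts of HLA-DQA1 and 1 count of HLA-DQB1 over its 6 libraries. MyLa was thus in the range of the T-ALL lines for these 4 genes, while its CIITA and CD74 were the highest of the 7 lines.

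Along chromosome 6 the genes at or next to 0 in MyLa were neighbours. From HLA-DRA to HLA-DQB1, a stretch of 228.5 kb, HLA-DRB5, another DR beta chain, also had 0 counts in all 6 MyLa libraries, against a control mean of 33.6 CPM in H9 and 573 CPM in Mac1. The next genes on the HLA-DQB1 side were read in MyLa, and genes on the far side of HLA-DRA were not looked at. HLA-DQA2 was at 1.39 CPM in MyLa controls against 37.1 CPM in H9 and 41.5 CPM in Mac1, and HLA-DQB2 at 11.3 CPM in MyLa against 4.08 and 6.64 CPM. HLA-DOB and HLA-DOA, the chains of HLA-DO, an inhibitor of HLA-DM, were at 43.8 and 404 CPM in MyLa, above H9 (1.18 and 22.6 CPM) and Mac1 (2.81 and 168 CPM). TAP2, PSMB8, PSMB9 and TAP1, class I genes in the same region, were between 192 and 690 CPM in MyLa. These neighbours were picked by position after the levels had been seen. RNA counts do not tell a lost stretch of DNA from a silent one, and HLA genes vary between people, so reads that differ from the reference may be lost or shared among relatives; neither was tested.

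**Figure D2:**
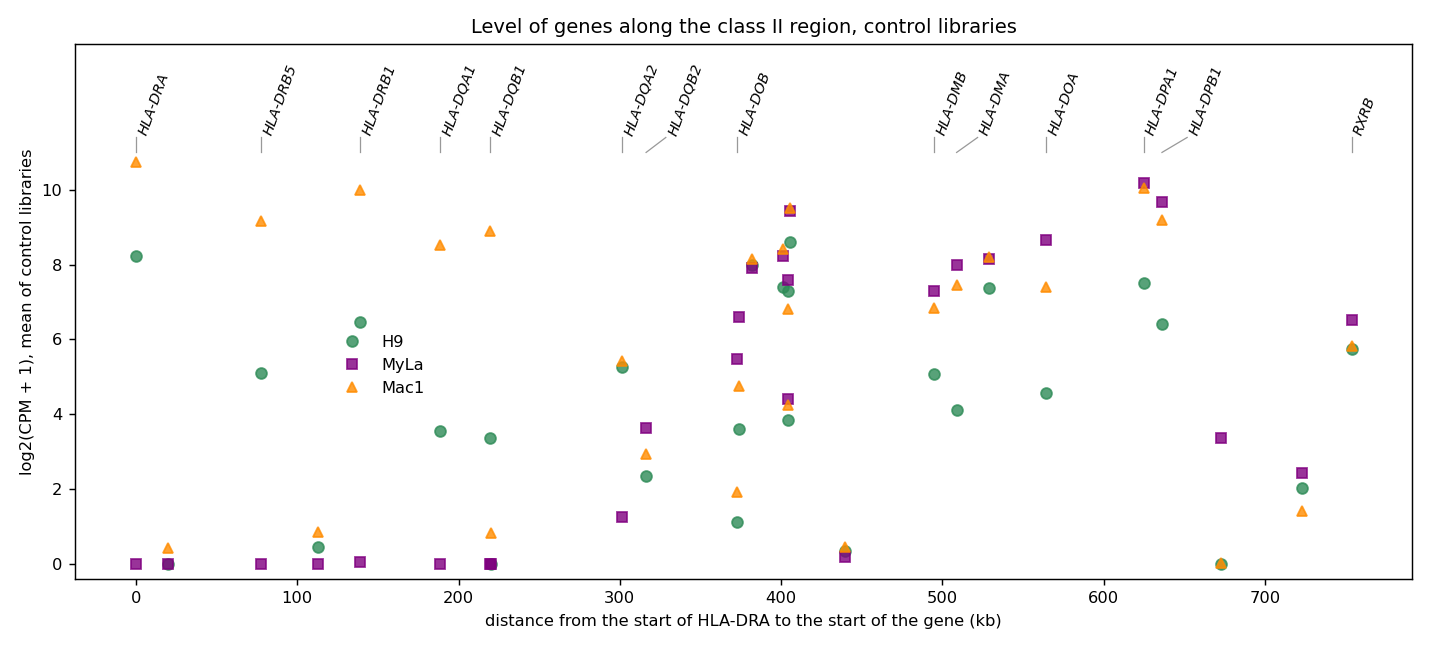
Mean level of genes in the control libraries of the 3 CTCL lines, as log2(CPM + 1), against the distance of each gene's start from the start of HLA-DRA in kb. Each point is a gene with at least 0.3 CPM in 1 of the 3 lines. MyLa squares lie at or next to 0 from HLA-DRA to HLA-DQB1 and rise with HLA-DQA2 and beyond.

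The HLA-DP chains were on in all 3 CTCL lines. HLA-DPA1 (chr6:33064569-33080775, minus strand), the DP alpha chain, was at 1192, 1130 and 1151 CPM in the MyLa controls, 1039 and 1090 CPM in Mac1 and 184 and 178 CPM in H9. MyLa and Mac1 were not shown to differ (MyLa 1.09-fold of Mac1, adjusted p = 0.36), and both were above H9, Mac1 by 5.89-fold. HLA-DPB1 (chr6:33075926-33087201, plus strand), the DP beta chain, was at 826, 784 and 835 CPM in MyLa, 561 and 611 CPM in Mac1 and 86.3 and 81.1 CPM in H9. Each step of that order passed the test, with MyLa 1.39-fold above Mac1 (adjusted p = 0.00138) and Mac1 7.00-fold above H9. HLA-DPA1 and HLA-DPB1 overlap on opposite strands over 96 exon bases, and no source used here states whether the counting used strand.

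The HLA-DM exchanger genes had the same order as CIITA. HLA-DMA (chr6:32948613-32969094, minus strand), the DM alpha chain, was at 255, 250 and 251 CPM in the MyLa controls, 175 and 173 CPM in Mac1 and 16.1 and 16.6 CPM in H9. HLA-DMB (chr6:32934629-32941070, minus strand), the DM beta chain, was at 158, 153 and 156 CPM in MyLa, 118 and 109 CPM in Mac1 and 33.0 and 33.1 CPM in H9. The step from H9 to Mac1 was 10.6-fold for HLA-DMA and 3.43-fold for HLA-DMB. HLA-DMA was the 1 gene of the 10 read in every T-ALL library besides CIITA, with up to 128 counts (4.44 CPM), and its THP6 controls (mean 3.65 CPM) did not overlap the other T-ALL lines. HLA-DMA shares 55 exon bases with BRD2 on the other strand.

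Set against exon length, CD74 was the most abundant of the 10 in each CTCL line. Control means per kb of exon were 2506 CPM in MyLa, 1418 CPM in Mac1 and 439 CPM in H9. HLA-DRA came next in the lines that had it, at 1350 CPM per kb in Mac1 and 236 CPM per kb in H9. CIITA was at 23.1, 15.6 and 6.86 CPM per kb in MyLa, Mac1 and H9; its annotated exons of all isoforms together span 20.8 kb, so its level per kb is low by construction. The ratio of HLA-DMA to HLA-DMB per kb of exon was 2.98 ± 0.03 (SD, n = 3) in MyLa controls and 2.82 ± 0.12 (n = 2) in Mac1, but 0.909 ± 0.015 (n = 2) in H9. The ratio of HLA-DRA to HLA-DRB1 was 3.34 ± 0.15 in H9 and 1.64 ± 0.03 in Mac1 (n = 2 each). The chains of a pair were thus not in 1 fixed ratio across lines.

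The control level differed over the 7 lines for all 10 genes by the edgeR F test, where 96.3% of all tested genes also passed. With each line as 1 sample (counts of its control libraries summed), 7 of the 10 genes could be tested between 3 CTCL and 4 T-ALL lines. HLA-DRA, HLA-DRB1 and HLA-DQA1, at or next to 0 in MyLa, did not pass the filter. With no filter edgeR did not call them (adjusted p = 0.175, 0.282 and 0.304). CD74, HLA-DPA1 and HLA-DPB1 passed the filter through their CTCL counts, so a call for them could only be higher in CTCL. CIITA (8.80 ± 0.55, log2 ± SE, adjusted p = 0.0045), CD74 (15.37 ± 1.17, adjusted p = 0.0127), HLA-DPB1 (14.85 ± 1.53, adjusted p = 0.0188) and HLA-DPA1 (13.14 ± 1.58, adjusted p = 0.0323) were higher in CTCL. Of all genes tested in this way 0.205% were called higher in CTCL. HLA-DMA, HLA-DMB and HLA-DQB1 did not pass, with adjusted p of 0.07, 0.0601 and 0.265. Leaving out any 1 of MyLa, Mac1, SUP-T1, MOLT4 and THP6 left 2 genes called, and leaving out CCRF-CEM left 3. DESeq2 called 8 of the 10, but it called 1981 of all genes in either direction, against 52 by edgeR. Leaving out H9 gave 6, with HLA-DMA (adjusted p = 0.015) and HLA-DMB (adjusted p = 0.0361) among them. The size of these differences rests on T-ALL lines with few or no counts.

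After GATA3 knockdown the genes called in H9 were lower and the genes called in Mac1 were higher, with HLA-DPB1 called in both, and the difference between the responses of these lines passed the test for 6 of the 10 genes. In H9 all 10 genes had a lower mean in knockdown, and 3 were called lower and 0 higher at an adjusted p under 0.05 over all tested genes, where 0.965% of all genes were called lower and 0.852% higher. All 3 H9 knockdown libraries lay below both controls for all 10 genes, against 16.6% of genes with a mean of 10 counts in an arm. The median log2 fold change of the 10 was -0.36, beside 0.01 for genes with a mean of 10 counts. Without the first control library 0 of the 10 were called in H9, without the second control or the third knockdown library 1 was, and DESeq2 called 6.

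The DP chains moved most in H9. HLA-DPA1 went from 184 and 178 CPM in control to 122, 118 and 122 CPM in knockdown, a fold change of -0.58 ± 0.11 (log2 ± SE, adjusted p = 0.00267). HLA-DPB1 went from 86.3 and 81.1 CPM to 56.7, 61.7 and 57.2 CPM (-0.52 ± 0.12, adjusted p = 0.0211). HLA-DRB1 went from 85.1 and 88.2 CPM to 66.9, 58.8 and 63.2 CPM (-0.46 ± 0.10, adjusted p = 0.0289). These 3 chains fell, and in each the knockdown libraries lay close together and apart from the controls.

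The other 7 did not pass in H9. HLA-DQA1 came nearest, at 10.8 CPM in both controls and 8.32, 7.57 and 8.41 CPM in knockdown (-0.42 ± 0.10, adjusted p = 0.0549). HLA-DRA was at 305 and 297 CPM and then 228, 250 and 242 CPM (-0.33 ± 0.12, adjusted p = 0.237), and CD74 at 1422 and 1376 CPM and then 1146, 1208 and 1126 CPM (-0.27 ± 0.13, adjusted p = 0.429). CIITA was at 153 and 131 CPM in control and 125, 85.3 and 117 CPM in knockdown (-0.38 ± 0.14, adjusted p = 0.208). For CIITA the second knockdown library stood well below the others, and the same library was the lowest for HLA-DQB1, at 5.93 CPM against 8.82 and 7.995 CPM. It was also the lowest in knockdown for HLA-DRB1, HLA-DPA1 and HLA-DQA1. For CD74, HLA-DRA, HLA-DPB1 and HLA-DMB it was the highest in knockdown. HLA-DMA and HLA-DMB had changes of -0.29 ± 0.14 and -0.22 ± 0.10. In the same libraries a list of 7 B cell markers summed to 269 to 292 CPM in control and 310 to 324 CPM in knockdown, with 4 of the 7, MS4A1 among them, under 1 CPM; its part in the class II values was not tested.

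In Mac1, 9 of the 10 genes had a higher mean in knockdown and 3 were called higher, 0 lower. Of all tested genes 5.54% were called higher and 2.36% lower in this line. Both Mac1 knockdown libraries lay above both controls for 9 of 10 genes, against 35.6% of genes with a mean of 10 counts in an arm, so non-overlap is common in this line of 2 against 2 libraries. The median log2 fold change of the 10 was 0.36, beside 0.04 for genes with a mean of 10 counts. Leaving out either control library or the first knockdown library left 0 of the 10 called in Mac1, leaving out the second knockdown library left 1, and a fit without the SUP-T1 libraries called 6, DESeq2 7.

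HLA-DQA1 went from 360 and 373 CPM in control to 495 and 473 CPM in knockdown (0.40 ± 0.09, log2 ± SE, adjusted p = 0.0152). HLA-DPB1 went from 561 and 611 CPM to 835 and 800.5 CPM (0.48 ± 0.13, adjusted p = 0.022). HLA-DRA went from 1692 and 1763 CPM to 2426 and 2263 CPM (0.44 ± 0.13, adjusted p = 0.0467). An alpha or beta chain of each of DR, DP and DQ rose in this way. CD74, at 4297 and 4733 CPM and then 5926 and 6286 CPM, just missed the threshold (0.44 ± 0.14, adjusted p = 0.0505), as did HLA-DPA1, at 1039 and 1090 CPM and then 1406 and 1344 CPM (0.37 ± 0.12, adjusted p = 0.0568).

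CIITA stood apart in Mac1. It was at 334 and 312 CPM in control and 286 and 337 CPM in knockdown, with overlapping libraries and a fold change of -0.05 ± 0.15 (adjusted p = 0.965), which became 0.03 without the first control library and 0.09 without the first knockdown library. HLA-DRB1 (0.34 ± 0.11), HLA-DQB1 (0.31 ± 0.12), HLA-DMA (0.27 ± 0.14) and HLA-DMB (0.22 ± 0.11) did not pass. In the same libraries the monocyte and dendritic cell list summed to 36.4 to 40.9 CPM in control and 55.8 to 59.7 CPM in knockdown. That sum was nearly all CSF1R, a receptor of macrophage growth, with 9 of the 10 markers under 1 CPM and CD163 and CLEC10A at 0 counts; its part in the class II values was not tested.

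In MyLa the 6 genes that could be measured all had a higher mean in knockdown, and 0 of the 10 were called by edgeR, with 4 at an unadjusted p under 0.05. Of all tested genes 1.02% were called higher and 0.861% lower in MyLa. All 3 knockdown libraries lay above all 3 controls for the 6 genes, against 13.5% of genes with a mean of 10 counts in an arm. HLA-DMB was nearest to the threshold, at 158, 153 and 156 CPM in control and 198, 184 and 190 CPM in knockdown (0.29 ± 0.09, adjusted p = 0.0876). CD74 was at 8128, 7837 and 7976 CPM and then 10100, 9625 and 10350 CPM (0.33 ± 0.11, adjusted p = 0.174), and CIITA at 483.5, 465 and 490 CPM and then 558, 568 and 622 CPM (0.28 ± 0.12, adjusted p = 0.382). HLA-DPA1, HLA-DPB1 and HLA-DMA had changes of 0.21, 0.21 and 0.19. DESeq2 called 4 of the 10 in MyLa and a fit of MyLa alone called 6. HLA-DRA and HLA-DQA1 stayed at 0 counts in the MyLa knockdown libraries, HLA-DRB1 had 0 counts and HLA-DQB1 had 1.

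**Figure D3:**
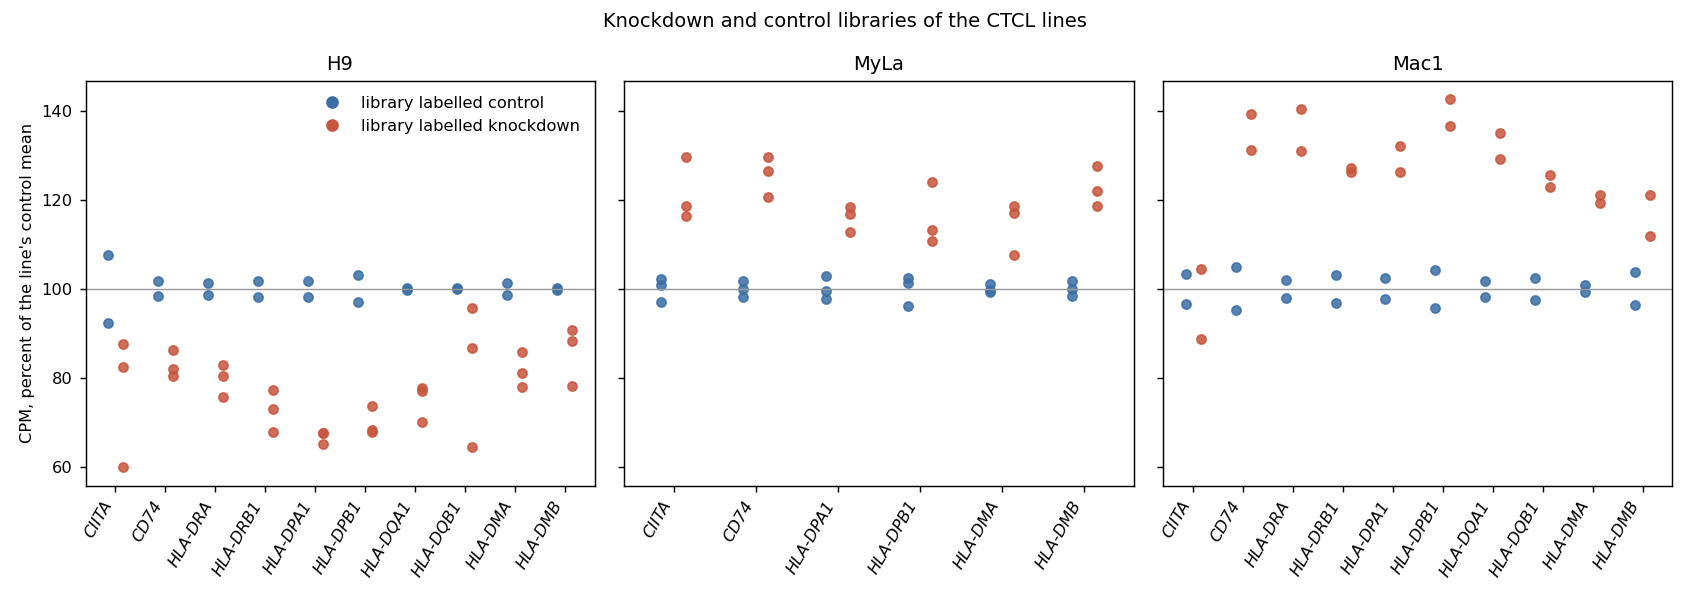
CPM of each gene in each library of the 3 CTCL lines, as a percent of that line's control mean (grey line at 100). Blue points are control and red points knockdown libraries; the 4 genes with 0 to 2 counts in MyLa are left out there. Red points lie below blue for all 10 genes in H9, above blue for all 6 in MyLa, and above blue for 9 of 10 in Mac1.

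The responses of the lines were then set against each other by interaction terms of the same edgeR fit. H9 minus Mac1 was negative for all 10 genes and called for 6, where 2.55% of all tested genes were called in that direction. The differences called were HLA-DPB1 (-0.997 ± 0.178, log2 ± SE, adjusted p = 0.00156), HLA-DPA1 (-0.95 ± 0.16, adjusted p = 0.000805), HLA-DQA1 (-0.82 ± 0.13, adjusted p = 0.00467), HLA-DRB1 (-0.80 ± 0.15, adjusted p = 0.00687), HLA-DRA (-0.77 ± 0.17, adjusted p = 0.0215) and CD74 (-0.71 ± 0.19, adjusted p = 0.031). CIITA did not pass (-0.33 ± 0.21, adjusted p = 0.497). H9 minus MyLa was negative for the 6 genes measured in both and called for HLA-DPA1 (-0.80 ± 0.15, adjusted p = 0.00422) and HLA-DPB1 (-0.73 ± 0.16, adjusted p = 0.0254), where 0.568% of all genes were called in that direction; DESeq2 called 6. Leaving out either H9 control, the first or the third H9 knockdown, any MyLa control or the first MyLa knockdown library left 1 gene called in H9 minus MyLa. With the replicate number as a block (the 5 same-numbered pairs of these lines correlated at 0.16 to 0.36), HLA-DPA1 missed the threshold in H9 minus MyLa (adjusted p = 0.0562) and CIITA passed it (-0.74, adjusted p = 0.0473). MyLa minus Mac1 was called for 0 of the 6, with a range of -0.27 to 0.33 and 0 at an unadjusted p under 0.05, while 4.61% of all genes were called in either direction. The largest of these by size was CIITA, at 0.33 ± 0.20 (adjusted p = 0.398). Each line has its own controls, so these 3 comparisons share libraries only through the line they have in common.

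**Figure D4:**
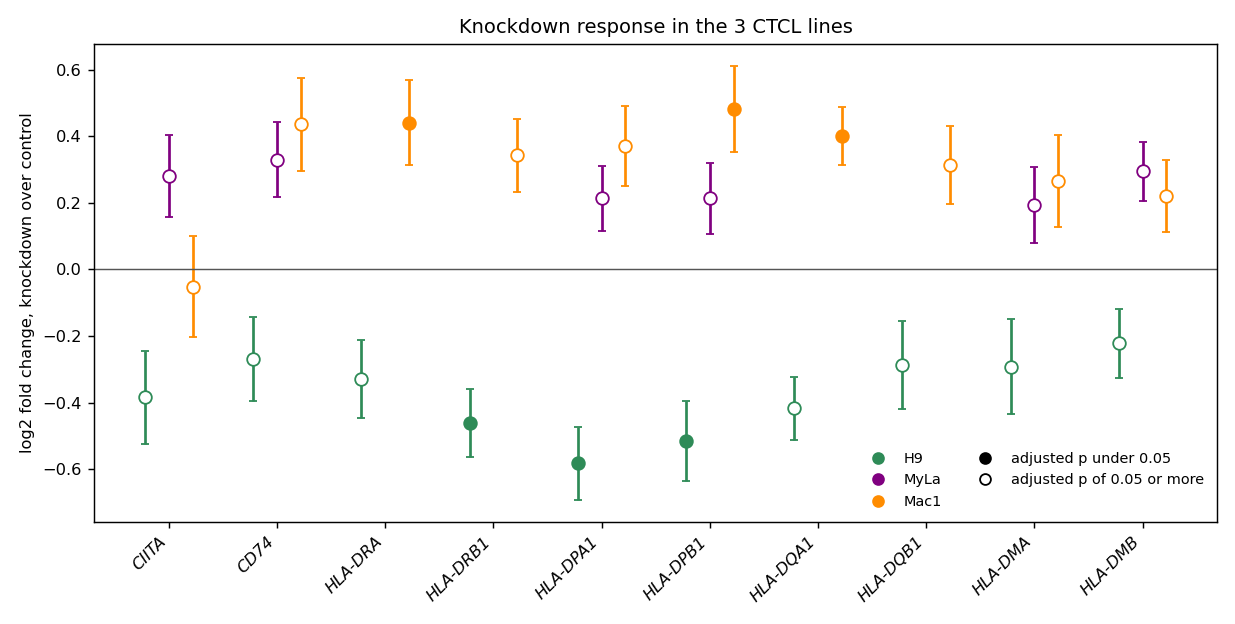
Log2 fold change, knockdown over control, of each gene in H9, MyLa and Mac1, with 1 standard error from the edgeR fit. Filled points have an adjusted p under 0.05 over all tested genes. H9 points lie below 0 for all 10 genes, from -0.58 to -0.22, and 3 are filled; Mac1 points lie above 0 for all but CIITA, and 3 are filled.

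In the T-ALL lines few of the genes had reads to compare. CIITA was at 11 to 29 counts per control library and 14 to 32 counts per knockdown library, and was called in none of the 4 lines. In CCRF-CEM, HLA-DPA1 was called lower on 9, 5 and 7 counts in control and 2, 0 and 0 in knockdown (adjusted p = 0.00199), and 0 of the 10 were called higher; 5.44% of all tested genes were called lower and 3.00% higher. With a mean under 10 counts in both arms, HLA-DPA1 does not count as measured in CCRF-CEM. In MOLT4, HLA-DMA was called lower on 25 and 26 counts in control and 9 and 12 in knockdown (-1.27 ± 0.40, log2 ± SE, adjusted p = 0.0228), and 0 were called higher, where 10.3% of all genes were called lower and 8.88% higher. The MOLT4 call was lost without any 1 of its 4 libraries, and the CCRF-CEM call held in the 13 other fits that tested the gene. In THP6, 0 of the 10 were called by edgeR, with HLA-DMB at 28, 13 and 15 counts and then 12 and 9 counts (adjusted p = 0.0815) and 1 gene at an unadjusted p under 0.05; DESeq2 also called 0, and the count was 1 without the second control and 2 without the first knockdown library, while 5.56% of all genes were called higher and 1.84% lower. Between the SUP-T1 libraries by label, 0 of the 10 were called by edgeR and 1 by DESeq2, limma-voom, or edgeR without the second library labelled control, with 8.14% of all genes called higher and 8.57% lower in those labelled knockdown. CIITA there was at 20, 17 and 16 counts in the libraries labelled control and 24, 22 and 32 counts in those labelled knockdown (0.77 ± 0.32, adjusted p = 0.109). HLA-DQB1, read in SUP-T1 alone among T-ALL lines, was at 15, 26 and 16 counts and then 11, 11 and 10 counts (adjusted p = 0.191).

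Over all lines the response differed for 8 of the 10 genes by the F test over 7 lines, all but HLA-DRA and HLA-DQB1, where 35.2% of all tested genes passed. Over the 6 lines without SUP-T1 it differed for 7, those other than CIITA, HLA-DRA and HLA-DQB1, where 25.0% of all genes passed. Only CIITA and HLA-DMA were measured in all 7 lines. HLA-DRB1 and HLA-DQA1 were measured in H9 and Mac1 alone, so their F tests compare little beyond these lines. The F test of HLA-DPA1 takes in its CCRF-CEM counts, which do not count as measured. With the line as the unit, a shared mean response was called for 0 of the 10 genes by edgeR, with 0 at an unadjusted p under 0.05 and 0.00435% of all genes called. The mean of CD74 was 0.15 ± 0.12 over 7 lines and 0.17 ± 0.13 without SUP-T1, and that of HLA-DMA -0.11 ± 0.15 and -0.17 ± 0.15. The difference in response between CTCL and T-ALL was also called for 0 of the 10, with 0.00435% of all genes called. At an unadjusted p under 0.05 there was 1, HLA-DMB (1.06 ± 0.28). Without SUP-T1 it was again called for 0. HLA-DMB (1.09 ± 0.29), HLA-DMA (0.67 ± 0.25) and HLA-DPB1 (-4.09 ± 1.75) then had an unadjusted p under 0.05. Over the 21 T-ALL libraries HLA-DPB1 had only 19 counts. HLA-DQA1 had 0 counts there, HLA-DRB1 2 and HLA-DRA 14, too few to show a class difference.

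Other genes of the pathway were read from 5 lists. Of 7 other class II genes, 1 fell in H9, 2 rose in MyLa, 2 rose in Mac1 and 2 were called higher between SUP-T1 arms by label. The shares of all genes called in those directions were 0.965%, 1.02%, 5.54% and 8.14%. In MyLa these were HLA-DQB2, from a mean of 11.3 ± 0.7 CPM (SD, n = 3) to 23.3 ± 1.1 CPM (n = 3; 1.04 ± 0.13, log2 ± SE, adjusted p = 0.000185), and HLA-DQA2, from 1.39 ± 0.25 to 3.89 ± 0.99 CPM (1.49 ± 0.19, adjusted p = 0.000331). They are the first class II genes read past HLA-DQB1 in that line. HLA-DOB rose in Mac1 from 2.81 to 5.35 CPM (0.92 ± 0.21, adjusted p = 0.00516). The gene that fell in H9, HLA-DRB5 (-0.43 ± 0.08, adjusted p = 0.0149), also rose in Mac1 (0.34 ± 0.08, adjusted p = 0.0248); it is named after its values were seen, and its reads can be shared with HLA-DRB1.

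Of 11 genes of the promoter complex and of CIITA control, 0 changed in H9 by edgeR, with 0 at an unadjusted p under 0.05. PRDM1, a repressor of CIITA, rose in MyLa from 12.2 to 22.3 CPM (0.87 ± 0.10, adjusted p = 3.6e-06). In Mac1, RFXAP, a subunit of RFX, rose from 11.3 to 18.4 CPM (0.71 ± 0.15, adjusted p = 0.00312), and IRF4, a lymphocyte transcription factor, from 628 to 1029 CPM (0.71 ± 0.10, adjusted p = 2.8e-05). RFX5, the large RFX subunit, fell in the SUP-T1 libraries labelled knockdown (-0.36 ± 0.05, adjusted p = 2.9e-06). The list counts were 4 lower in SUP-T1, 2 higher in CCRF-CEM, 1 higher in MOLT4 and 0 in THP6 (1 at an unadjusted p under 0.05). The shares of all genes called in those directions were 8.57% in SUP-T1, 3.00% in CCRF-CEM and 8.88% in MOLT4, so that 1 of 11 in MOLT4 is near the share of all genes.

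Interferon gamma is the main signal that induces CIITA outside professional presenting cells. Of its 9 pathway genes, 0 were called in H9 and 0 in MyLa by edgeR, with 1 in each at an unadjusted p under 0.05, and 2 rose in Mac1, where 5.54% of all genes were called higher. SOCS1, a feedback inhibitor of cytokine signalling, went from 129 to 203 CPM in Mac1 (0.66 ± 0.09, log2 ± SE, adjusted p = 1.6e-05), and had 0 counts in every H9 library. IRF1, the factor that acts on the CIITA promoter, rose in MOLT4 (1.42 ± 0.12, adjusted p = 6.3e-10), where CIITA stayed at 11 to 26 counts per library.

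Of 8 peptide loading genes tested, 0 changed in H9 by edgeR (3 at an unadjusted p under 0.05), 1 rose in MyLa, and 1 rose and 1 fell in Mac1, where 5.54% of all genes were called higher and 2.36% lower; the share called higher in MyLa was 1.02%. CTSS, the protease that trims CD74, rose in MyLa from 1.92 to 3.15 CPM (0.71 ± 0.18, adjusted p = 0.0381) and in Mac1 from 6.37 to 11.5 CPM (0.85 ± 0.18, adjusted p = 0.00275). It also rose in CCRF-CEM (0.79 ± 0.21, adjusted p = 0.0149) and MOLT4. LGMN, an endosomal protease, fell in Mac1 from 1.01 to 0.238 CPM. Of 5 ligands and receptors, 0 changed in H9 or MyLa by edgeR, with 2 and 1 at an unadjusted p under 0.05, and CD4, the co-receptor for class II, rose in Mac1 from 184.5 to 277 CPM (0.59 ± 0.13, adjusted p = 0.00413).

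The genes whose control pattern over the 7 lines was most like the mean of the 10 were LRG1, COX5A, SLFN12L, GAS2L3 and NBPF26, of 13761 genes with at least 5 CPM in their highest line. Their Pearson correlations on log2(CPM + 1) ran from 0.988 to 0.994 over 7 line means. LRG1 was at 12.3 CPM in Mac1, 3.40 CPM in H9, 3.30 CPM in MyLa and at most 0.195 CPM in the T-ALL lines. COX5A, a subunit of the respiratory chain read in every line, ran only from 138 CPM in MOLT4 to 188 CPM in Mac1. With 7 points, of which the 4 T-ALL lines lie together, the likeness is given as a description.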

How the data were processed

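Poly(A) RNA of 36 libraries was used. Reads were handled by the authors with cutadapt 2.3, STAR 2.7.8a and RSEM 1.3.3 on GRCh38, per the submitters' processing notes; no source used here gives the annotation release or strand setting. The deposited values are RSEM expected counts per gene, all whole numbers, so rounding changed 0 values. RSEM shares reads among similar genes, which affects the HLA family.

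Groups are line and arm, from the sample titles. Genes were filtered with filterByExpr (21138 of 60628 kept) and fitted with edgeR 4.0.16 (TMM, quasi-likelihood, 14 group means over all 36 libraries, R 4.3.3). A gene was called at a Benjamini-Hochberg adjusted p under 0.05 over all tested genes. Shares of all genes called are from the edgeR fits reported. Counts called by the alternative fits have no such share beside them unless one is given. Line means used counts summed per line. CPM is on TMM-scaled totals; exon lengths and positions are from GENCODE 29 (GRCh38). A gene counts as measured in a line with a mean of 10 counts in an arm, a rule chosen after values were seen.

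The genes, lists and tests were chosen with earlier results of these data known. Named genes are the 10 members, GATA3, list genes called in a line (at most 4 per list, lowest adjusted p) and the 5 of most similar pattern. On simulated counts with 200 genes changed 2-fold the fit recovered 98 to 100% per line. With 200 changed 1.5-fold it recovered 43 to 79.5%, with 46% in Mac1. The changed genes were drawn from those at or above a set mean count in the line. A single fixed spread was used for all genes. These rates were not split by count level. They therefore do not show how often a change would be found in genes with few counts, such as the class II genes in the T-ALL lines. Replicate numbers were checked for pairing: 17 correlations of same-numbered libraries ran from -0.23 to 0.36 with 7 over 0.1. These are not 17 separate checks, since values were first centred on each group's mean. Both pairs of Mac1, and both of MOLT4, therefore give the same value by construction. Differently numbered libraries were not correlated. All 3 in MyLa (0.25 to 0.30) and both in H9 (0.16 and 0.36) were over 0.1, and in each other line at least 1 was not, so the fit reported, which has no block, was set beside one with a block. Library pairs of a group differed by at least 3.67 times counting noise, so none was treated as 1 library deposited again; this does not show separate cultures. Alternatives tried were limma-voom 3.58.1, DESeq2 1.42.0, its size factors in edgeR, other filters, lines fitted alone, a replicate block, leaving out each library or line, and, added after seeing the data, a fit without the SUP-T1 libraries. Values of some list genes are not reported here.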

Additional observations from a re-analysis of the deposited data

Results flagged for a closer look

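Differences in the response to knockdown between CTCL lines stood out by the interaction test of the edgeR fit, at an adjusted p under 0.05 over all tested genes. Between H9 and Mac1 the difference in log2 fold change, H9 minus Mac1, was -0.997 for HLA-DPB1, -0.95 for HLA-DPA1, -0.82 for HLA-DQA1, -0.80 for HLA-DRB1, -0.77 for HLA-DRA and -0.71 for CD74. The difference H9 minus MyLa was -0.80 for HLA-DPA1 and -0.73 for HLA-DPB1. In each case every H9 knockdown library was below every H9 control library, while the knockdown libraries of the other line were all above its controls. The log2 fold change of GATA3 itself was -1.25 in H9, -1.15 in Mac1 and -0.72 in MyLa; its part in these differences was not tested. No group has 4 or more libraries, so no library was tested for standing apart.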

How the results depend on the processing

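The direction of the response held under every alternative run for 27 of 28 log2 fold changes, those of the measured genes in the CTCL lines and of the 2 genes called in T-ALL lines. The exception was CIITA in Mac1, at 0.03 without control replicate 1 and 0.0876 without knockdown replicate 1, in a range of -0.147 to 0.0876 with a library left out. Of the 22 differences between CTCL lines 21 held their direction; HLA-DMB, MyLa minus Mac1, was 0.07, with -0.0114 without Mac1 control replicate 1 and -0.0135 without Mac1 knockdown replicate 2, in a range of -0.0135 to 0.103 with a library left out. The number of genes called moved more. In H9 (3 called) it was 5 with no filter, 5 with limma-voom and 6 with DESeq2, and 0 to 2 with a library left out. In MyLa (0 called) it was 1 with no filter, 2 with limma-voom, 4 with DESeq2 and 6 with MyLa fitted alone, and 0 throughout with a library left out. In Mac1 (3 called) it was 6 with no filter, 6 with a filter of 10 counts in 2 libraries, 8 with limma-voom, 7 with DESeq2, 7 with Mac1 fitted alone and 6 without the SUP-T1 libraries, an alternative chosen after seeing the data; with a library left out it was 0 to 1, where the lone sample of an arm is assumed to vary like the other groups. In SUP-T1 (0) it was 1 with no filter, 1 with limma-voom, 1 with DESeq2 and 0 to 1 with a library left out. CCRF-CEM (1) gave 2 with DESeq2 and 1 throughout with a library left out; fitted alone it gave 0, a fit whose filter did not keep HLA-DPA1, the gene called. MOLT4 (1) gave 2 with limma-voom and 0 throughout with a library left out, and THP6 (0) gave 0 to 2. H9 minus MyLa (2 called) gave 4 with no filter, 6 with DESeq2 and 1 to 3 with a library left out. H9 minus Mac1 (6) gave 4 to 7 with a library left out and 9 with DESeq2, and MyLa minus Mac1 gave 0 in every fit run. Same-numbered pairs correlated above 0.1 in MyLa, with 3 pairs, and in H9, with 2, but pairs of a line are not separate checks. The replicate block gave 2 in H9 (HLA-DRB1 at an adjusted p of 0.0992), 0 in MyLa and 2 in Mac1 (HLA-DRA at 0.0719). It gave 4 for H9 minus Mac1 (CD74 at 0.184 and HLA-DRA at 0.0627) and 2 for H9 minus MyLa. Between CTCL and T-ALL controls (4 called) it was 2 without MyLa, 2 without Mac1, 2 without SUP-T1, 2 without MOLT4, 2 without THP6 and 8 with DESeq2. Of the 4 called by edgeR, CD74, HLA-DPA1 and HLA-DPB1 had passed the filter through their CTCL counts. In that comparison DESeq2 called 1981 of all genes, against 52 by edgeR. The mean response and the class difference stayed at 0 called, though HLA-DRA, HLA-DRB1 and HLA-DQA1 had too few T-ALL counts to show the latter. The order of the CTCL lines was the same for all 10 genes with CPM on total counts. The cause of these shifts was not tested. Few counts limit the T-ALL values, where 8 of the 10 genes had at most 28 counts in any library, and Mac1 and MOLT4 have 2 libraries an arm.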
